A study of Mus musculus with 10 samples.

Results

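T cells, natural killer (NK) cells and B cells were followed through 30 marker genes in 10 RNA-seq libraries from a mouse ovarian tumour line. The members are the table rows whose gene name equals a listed symbol, 30 of 55385 genes, and every symbol was found once. They fall into 16 T cell genes, 11 NK and cytotoxic genes and 3 B cell genes. Titles spell the line APV245 and the design text spells it APC245. It came from an Arid1a/Pik3ca co-mutated tumour, so both groups carry those mutations. There were 5 libraries labelled IL6 shRNA1 (genotype IL6 knockdown), for an shRNA against Il6. They were set against 5 libraries labelled control shRNA (genotype WT), for a non-mammalian shRNA in pLKO.1-puro. All samples are marked as untreated and as 1 batch. The labels do not give the strain or age of a host mouse, or say whether replicates are separate tumours, so the p-values measure only the spread between these samples, which may be technical. The sample labels describe cells grown in DMEM with serum, whereas the design text describes tumours under the skin. Macrophage markers summed to 1100 to 2020 FPKM under the IL6 shRNA1 label and to 492 to 1230 FPKM in control. Endothelial markers summed to 27.7 to 56.6 FPKM and to 21.5 to 36.7 FPKM in the same order. The libraries thus held RNA read as that of other cell types, and its source was not tested. Library totals were 17905397 to 19934278 counts in the libraries labelled IL6 shRNA1 and 18224751 to 22682346 counts in control. Il6 averaged 1.73 CPM under the IL6 shRNA1 label and 1.26 CPM in control (adjusted p = 0.44 by edgeR, with a log2 fold change of 0.44 ± 0.37 SE). A fall of the targeted gene was thus not detected, and every direction given is between labels. The cells that gave the Il6 reads were not identified, so knockdown in the tumour cells was not tested.

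T cells recognise peptides on MHC molecules through a T cell receptor whose signal is carried into the cell by the CD3 chains, and then by the kinases LCK and ZAP70 and the adaptor LAT. CD8 T cells and NK cells kill target cells with perforin and granzymes, and NK cells choose targets through receptors such as NKG2D and NKp46. B cells signal through immunoglobulin joined to the CD79A and CD79B chains. In tumours these genes are read as markers of infiltrating lymphocytes, because epithelial and mesothelial cells do not normally express them.

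Members of all 3 classes were counted at low levels, and in the B cell class only Cd79b passed the filter on low counts. No tested member differed between the groups past the threshold. CPM is the count scaled to library size with TMM factors. The fold changes and p-values are from edgeR's quasi-likelihood test over 15064 genes, and a gene was called at a Benjamini-Hochberg adjusted p under 0.05. After the filter on low counts, 27 of the 30 members were tested: 0 were called higher and 0 lower, whereas 11.8% of all genes tested were called, 5.62% higher and 6.16% lower. All 27 log2 fold changes were above 0, with a median of 0.863 and a range from 0.12 (Gzma) to 1.38 (Cd247). Over all genes tested 47.9% were above 0 and the median was -0.0132. An unadjusted p under 0.05 was reached by 9 of the 27, which is 7 T cell genes, 1 NK gene and 1 B cell gene, beside 31.2% of all genes. Among the tested members the groups overlapped in every case, while 10.9% of all genes had groups that did not overlap, 4.81% with the libraries labelled IL6 shRNA1 higher. Without the 3 libraries farthest out on the first principal component (library 5 labelled IL6 shRNA1, control libraries 2 and 5), the median was 0.447 and 24 of 27 were above 0. Most of these genes varied together from library to library, so their shared sign is not a count of 27 independent observations. In bulk RNA, fewer cells of a type and less RNA per cell cannot be told apart.

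**Figure D1:**
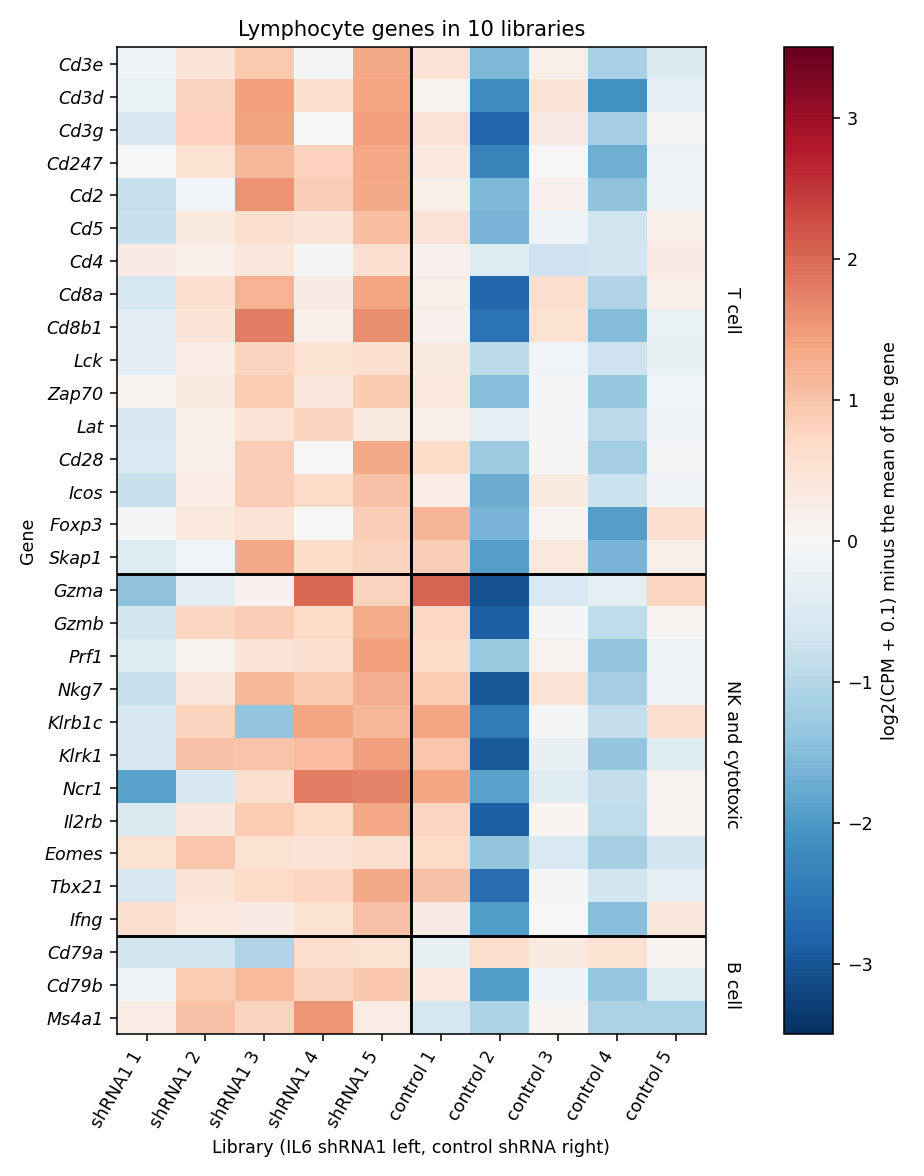
Heat map of 30 lymphocyte genes (rows, in T cell, NK and cytotoxic, and B cell blocks) in 5 libraries labelled IL6 shRNA1 and 5 control libraries (columns), coloured by log2(CPM + 0.1) minus the mean of the gene. Control libraries 2 and 4 are low in most rows, libraries 3 and 5 labelled IL6 shRNA1 are high, and Cd79a in the B cell block does not follow the others.

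Of the CD3 chain genes, 3 lie together on chromosome 9, where Cd3g and Cd3d are read in opposite directions 1354 bases apart and Cd3e lies 11400 bases beyond Cd3d. Promoter sequences are shown for these 3 neighbours, whose levels varied together, and for 3 NK and cytotoxic genes as the class set against them. Each is the 250 bases before the RefSeq start (table of build GRCm38.p6), written 5′ to 3′ on the strand of the gene. Capitals mark matches on either strand to 6-base core letters of lymphocyte transcription factors: TGTGGT or ACCACA for RUNX, AGGAAG or CTTCCT for ETS, AGATAA or TTATCT for GATA, and TCACAC or GTGTGA for T-box factors.
Cd3e (GRCm38.p6, chr9:45009612-45009861, minus strand): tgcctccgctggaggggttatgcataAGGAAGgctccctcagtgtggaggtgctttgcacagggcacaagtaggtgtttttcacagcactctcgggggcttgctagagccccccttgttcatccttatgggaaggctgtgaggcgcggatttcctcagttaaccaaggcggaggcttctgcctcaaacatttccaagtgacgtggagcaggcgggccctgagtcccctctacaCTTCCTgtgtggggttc
Cd3d (GRCm38.p6, chr9:44981536-44981785, plus strand): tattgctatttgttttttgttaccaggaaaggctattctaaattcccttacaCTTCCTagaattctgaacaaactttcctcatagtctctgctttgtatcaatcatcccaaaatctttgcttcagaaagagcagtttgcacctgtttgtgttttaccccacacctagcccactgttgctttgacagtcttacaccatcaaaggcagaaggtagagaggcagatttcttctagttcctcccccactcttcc
Cd3g (GRCm38.p6, chr9:44980432-44980681, minus strand): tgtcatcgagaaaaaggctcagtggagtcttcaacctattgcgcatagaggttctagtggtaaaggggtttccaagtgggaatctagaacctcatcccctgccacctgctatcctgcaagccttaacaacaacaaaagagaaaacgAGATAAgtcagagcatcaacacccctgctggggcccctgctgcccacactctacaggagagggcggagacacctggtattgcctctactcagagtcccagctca
Gzmb (GRCm38.p6, chr14:56262335-56262584, minus strand): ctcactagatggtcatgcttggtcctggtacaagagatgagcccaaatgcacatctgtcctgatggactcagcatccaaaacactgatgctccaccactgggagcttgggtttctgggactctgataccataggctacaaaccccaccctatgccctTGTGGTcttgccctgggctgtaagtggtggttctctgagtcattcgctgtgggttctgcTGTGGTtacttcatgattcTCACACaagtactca
Ncr1 (GRCm38.p6, chr7:4337474-4337723, plus strand): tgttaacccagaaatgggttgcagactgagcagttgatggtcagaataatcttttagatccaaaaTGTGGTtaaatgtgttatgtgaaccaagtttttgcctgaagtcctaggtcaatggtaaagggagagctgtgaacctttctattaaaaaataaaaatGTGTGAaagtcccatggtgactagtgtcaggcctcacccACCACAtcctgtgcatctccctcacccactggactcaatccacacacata
Klrk1 (GRCm38.p6, chr6:129623865-129624114, minus strand): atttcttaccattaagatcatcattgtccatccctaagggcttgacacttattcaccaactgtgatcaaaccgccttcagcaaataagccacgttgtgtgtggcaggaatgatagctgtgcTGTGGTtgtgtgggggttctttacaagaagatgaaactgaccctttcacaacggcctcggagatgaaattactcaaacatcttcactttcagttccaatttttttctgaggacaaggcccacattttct
A promoter was matched for 21 of the 30 members, with 10 of the 16 T cell genes among them. The RefSeq start used lay 6032 bases from the annotated 5′ end of Foxp3 and 574 bases from that of Klrb1c. The counts by class are thus from a partial set. The RUNX letters stood in 7 of 10 NK and cytotoxic promoters (Gzma, Gzmb, Prf1, Nkg7, Klrb1c, Klrk1 and Ncr1) and in 1 of 10 T cell promoters (Lck), beside 13.1% of 20971 promoters of the same length. The ETS letters stood in 4 of 10 NK and cytotoxic and in 7 of 10 T cell promoters, beside 28.8% of all. The T-box letters were found in 4 of the 21 (11.7% of all promoters) and the GATA letters in 1, that of Cd3g (9.43% of all). Matches to different motifs overlapped in the Klrb1c promoter and in none of the 6 shown. The motifs and the promoters shown were chosen after values were seen, and a match is a stretch of letters, not a site shown to be bound.

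Cd3e (ENSMUSG00000032093.7, chromosome 9, 44998740 to 45009627), an invariant chain needed for every T cell receptor on the surface, was counted in all 10 libraries. It stood at 1.66, 2.52, 3.49, 1.7 and 4.71 CPM in libraries 1 to 5 labelled IL6 shRNA1. It stood at 2.59, 0.536, 2.1, 0.776 and 1.25 CPM in control libraries 1 to 5. Libraries 3 and 5 labelled IL6 shRNA1 were the highest and control libraries 2 and 4 the lowest, while control libraries 1 and 3 lay above libraries 1 and 4 labelled IL6 shRNA1. The mean was 2.82 ± 1.3 CPM in libraries labelled IL6 shRNA1 and 1.45 ± 0.874 CPM in control libraries (SD, n = 5 each), and the difference was not called (adjusted p = 0.17, with a log2 fold change of 0.94 ± 0.45 SE). Cd3d (ENSMUSG00000032094.8, chromosome 9, 44981786 to 44987339), which pairs with CD3 epsilon, stood at 1.23, 2.57, 4.15, 2.24 and 3.97 CPM in libraries 1 to 5 labelled IL6 shRNA1. It stood at 1.61, 0.243, 2.06, 0.259 and 1.19 CPM in control libraries 1 to 5. Control libraries 2 and 4 held 5 counts each, and control libraries 1 and 3 lay above library 1 labelled IL6 shRNA1, so the groups overlapped here too (adjusted p = 0.12, with a log2 fold change of 1.38 ± 0.56 SE). Cd3g, the gamma chain (adjusted p = 0.24, with a log2 fold change of 1.08 ± 0.59 SE), and Cd247, the zeta chain that carries most of the signalling motifs (adjusted p = 0.1, with a log2 fold change of 1.38 ± 0.52 SE), ran the same way. Cd247 rested on 17 to 46 counts in libraries labelled IL6 shRNA1 and 2 to 28 counts in control. By the DESeq2 test Cd247 was called (adjusted p = 0.046), as were 3025 of 29634 genes.

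The co-receptor genes varied by different amounts across the libraries. Cd8a (ENSMUSG00000053977.13, chromosome 6, 71373427 to 71379173), the co-receptor chain of killer T cells, stood at 2.94, 6.67, 10.6, 5.6 and 11.9 CPM in libraries 1 to 5 labelled IL6 shRNA1. It stood at 5.26, 0.584, 6.79, 2.12 and 5.22 CPM in control libraries 1 to 5. Its libraries labelled IL6 shRNA1 spread over 4.05-fold and its control libraries over 11.6-fold, against a 1.89-fold ratio of the means (adjusted p = 0.3, with a log2 fold change of 0.91 ± 0.57 SE). Its partner chain Cd8b1, 35932 bases away on chromosome 6, had means of 3.38 ± 2.16 CPM in libraries labelled IL6 shRNA1 and 1.29 ± 0.934 CPM in control libraries (SD, n = 5 each, adjusted p = 0.16, with a log2 fold change of 1.37 ± 0.62 SE). Cd4 (ENSMUSG00000023274.14, chromosome 6, 124864692 to 124888221), the co-receptor of helper and regulatory T cells, which some mouse dendritic cells also express, stood at 13, 12.1, 14.1, 10.3 and 15.9 CPM in libraries 1 to 5 labelled IL6 shRNA1. It stood at 11.8, 7.74, 6.4, 6.67 and 13 CPM in control libraries 1 to 5. It was the most even member of the T cell block, with a spread of 1.54-fold in libraries labelled IL6 shRNA1 and 2.03-fold in control, and control library 2, at the bottom for Cd8a, was not at the bottom for Cd4. The Cd4 difference was not called (adjusted p = 0.13, with a log2 fold change of 0.52 ± 0.21 SE). On the log2 scale the ratio of Cd8a to Cd4 counts was -0.94 ± 0.707 in libraries labelled IL6 shRNA1 and -1.54 ± 1.36 in control (SD, n = 5 each; exact two-sided permutation p = 0.476, adjusted over the 3 ratios tested 0.683). The smallest p this design allows is 0.0079. Per length, Cd4 was the most abundant T cell member, at 3.24 ± 0.455 FPKM in libraries labelled IL6 shRNA1 and 2.24 ± 0.707 FPKM in control (SD, n = 5 each).

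Below the receptor, Lck (ENSMUSG00000000409.14, chromosome 4, 129548344 to 129573641), the kinase that starts the signal, stood at 4.49, 7.16, 10.2, 8.57 and 8.73 CPM in libraries 1 to 5 labelled IL6 shRNA1. It stood at 7.38, 3.02, 5.54, 3.52 and 4.92 CPM in control libraries 1 to 5. Its lowest values were again those of control libraries 2 and 4, but they were 3.02 and 3.52 CPM, a milder dip than that of the CD3 genes (adjusted p = 0.12, with a log2 fold change of 0.68 ± 0.27 SE). Zap70, the kinase that binds the phosphorylated chains, averaged 3.14 ± 0.814 CPM in libraries labelled IL6 shRNA1 and 1.62 ± 0.871 CPM in control libraries (SD, n = 5 each), with 0.682 and 0.776 CPM in control libraries 2 and 4 (adjusted p = 0.11, with a log2 fold change of 0.94 ± 0.37 SE). The adaptor gene Lat (adjusted p = 0.23, with a log2 fold change of 0.52 ± 0.28 SE) was, with Cd4 and Lck, among the members with the narrowest control range (2.26-fold). Skap1, an adaptor that links the receptor to integrin adhesion, had a log2 fold change of 0.65 ± 0.58 SE. It stood at 1.91 CPM in control library 1, below only library 3 labelled IL6 shRNA1, at 2.675 CPM. Cd2, an adhesion receptor of T and NK cells, averaged 3.48 ± 2.06 CPM in libraries labelled IL6 shRNA1 and 1.46 ± 0.794 CPM in control libraries (SD, n = 5 each, adjusted p = 0.13, with a log2 fold change of 1.24 ± 0.52 SE), and Cd5, a receptor that dampens the signal, 2.99 ± 1.2 CPM in libraries labelled IL6 shRNA1 and 1.92 ± 0.992 CPM in control libraries (SD, n = 5 each, adjusted p = 0.33, with a log2 fold change of 0.64 ± 0.42 SE). Without library 1 labelled IL6 shRNA1, Cd2 (adjusted p = 0.0495) and Lck (adjusted p = 0.04) were called by edgeR. That fit called 2774 of 15254 genes, against 1775 of 15064 with all libraries.

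The costimulatory genes Cd28 and Icos, 204567 bases apart on chromosome 1, had log2 fold changes of 0.75 ± 0.47 SE (adjusted p = 0.3) and 0.79 ± 0.43 SE (adjusted p = 0.23). Both were highest in library 5 labelled IL6 shRNA1, at 3.18 CPM for Cd28 and 4.92 CPM for Icos, and lowest in control library 2, at 0.438 CPM and 0.633 CPM. Foxp3 (ENSMUSG00000039521.13, chromosome X, 7573644 to 7595245), the transcription factor of regulatory T cells, stood at 1.23, 1.68, 1.86, 1.27 and 2.38 CPM in libraries 1 to 5 labelled IL6 shRNA1. It stood at 3.01, 0.341, 1.37, 0.259 and 1.96 CPM in control libraries 1 to 5. Its highest library was control library 1, and the control values spanned 11.7-fold around means of 1.68 ± 0.474 CPM in libraries labelled IL6 shRNA1 and 1.39 ± 1.16 CPM in control libraries (SD, n = 5 each, adjusted p = 0.78, with a log2 fold change of 0.27 ± 0.56 SE). The log2 ratio of Foxp3 to Cd3e counts was -0.66 ± 0.264 in libraries labelled IL6 shRNA1 and -0.372 ± 0.829 in control (SD, n = 5 each; exact two-sided permutation p = 0.468, adjusted over the 3 ratios 0.683). Without the same 3 outlying libraries (library 5 labelled IL6 shRNA1, control libraries 2 and 5), the Foxp3 log2 fold change was -0.06.

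**Figure D2:**
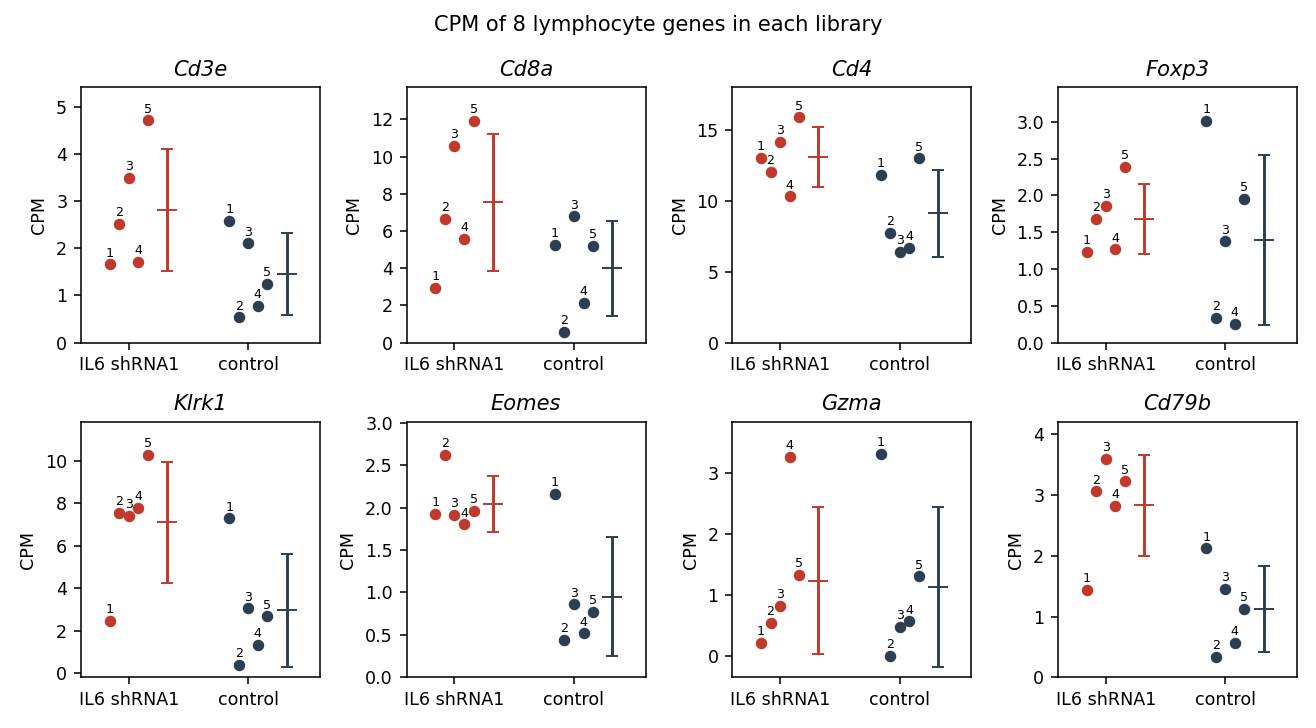
CPM (vertical axis) of 8 lymphocyte genes in each library, with libraries labelled IL6 shRNA1 left and control libraries right in each panel, points numbered by library, and the bar giving the mean ± SD (n = 5). Cd4 has the narrowest control range of the 8 relative to its level, Gzma has 1 high library in each group, and Eomes has 4 low control libraries and control library 1 at 2.16 CPM.

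The NK and cytotoxic genes split into those that followed the T cell genes and a few that did not. Klrk1 (ENSMUSG00000030149.15, chromosome 6, 129610323 to 129623864), which encodes the activating receptor NKG2D of NK and CD8 T cells, stood at 2.46, 7.56, 7.42, 7.79 and 10.3 CPM in libraries 1 to 5 labelled IL6 shRNA1. It stood at 7.3, 0.39, 3.05, 1.34 and 2.67 CPM in control libraries 1 to 5. Control library 2 was the lowest, as for the CD3 genes, but control library 1 came close to libraries 2 to 4 labelled IL6 shRNA1 (adjusted p = 0.19, with a log2 fold change of 1.26 ± 0.62 SE). Without control library 1 the Klrk1 log2 fold change was 1.95 (adjusted p = 0.0502 by edgeR), still not a call, and without control library 2 it was 0.99 (adjusted p = 0.25). Il2rb, the receptor chain for interleukins 2 and 15, was the most abundant of the class by counts, with means of 14.1 ± 6.01 CPM in libraries labelled IL6 shRNA1 and 7.74 ± 5.13 CPM in control libraries (SD, n = 5 each, adjusted p = 0.32, with a log2 fold change of 0.86 ± 0.55 SE). Nkg7, a granule membrane gene, was the highest of the class per length, at 4.86 ± 2.22 FPKM in libraries labelled IL6 shRNA1 and 2.71 ± 2.17 FPKM in control (SD, n = 5 each).

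The killing machinery was counted at low depth, and granzyme genes are close relatives whose reads the authors' counting could split. Gzmb (ENSMUSG00000015437.5, chromosome 14, 56258838 to 56262260), the granzyme that cleaves caspases in target cells, stood at 0.802, 2.27, 2.46, 2.19 and 3.39 CPM in libraries 1 to 5 labelled IL6 shRNA1. It stood at 2.25, 0.0974, 1.29, 0.672 and 1.42 CPM in control libraries 1 to 5. Control library 2 held 2 counts and library 5 labelled IL6 shRNA1 held 64, and 3 control libraries lay above library 1 labelled IL6 shRNA1 (adjusted p = 0.28, with a log2 fold change of 0.94 ± 0.57 SE). Prf1, the pore protein perforin, averaged 1.86 ± 0.996 CPM in libraries labelled IL6 shRNA1 and 1.04 ± 0.646 CPM in control libraries (SD, n = 5 each, adjusted p = 0.26, with a log2 fold change of 0.82 ± 0.48 SE). The log2 ratio of Gzmb to Cd3e counts was -0.358 ± 0.508 in libraries labelled IL6 shRNA1 and -0.622 ± 0.937 in control (SD, n = 5 each; exact two-sided permutation p = 0.683, adjusted over the 3 ratios 0.683). Ifng, the cytokine interferon gamma, had 11 to 20 counts in libraries labelled IL6 shRNA1 and 1 to 14 counts in control (adjusted p = 0.2, with a log2 fold change of 1.00 ± 0.51 SE).

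Gzma, Klrb1c and Ncr1 had another order of libraries. Gzma (ENSMUSG00000023132.8, chromosome 13, 113093825 to 113100981), a granzyme abundant in resting NK cells, stood at 0.214, 0.543, 0.819, 3.26 and 1.32 CPM in libraries 1 to 5 labelled IL6 shRNA1. It stood at 3.31, 0, 0.472, 0.569 and 1.3 CPM in control libraries 1 to 5. Library 4 labelled IL6 shRNA1 and control library 1 each stood far above the rest of their group, and the means were close (adjusted p = 0.95, with a log2 fold change of 0.12 ± 0.92 SE). Klrb1c (ENSMUSG00000030325.16, chromosome 6, 128778485 to 128789215), which encodes the NK1.1 receptor, had 5, 17, 2, 27 and 21 counts in libraries 1 to 5 labelled IL6 shRNA1. It had 31, 0, 10, 4 and 12 counts in control libraries 1 to 5. Library 3 labelled IL6 shRNA1, among the highest pair for 15 of 16 T cell genes, held 2 counts of Klrb1c (adjusted p = 0.74, with a log2 fold change of 0.44 ± 0.80 SE). Without control library 1 the log2 fold change was 1.15 for Klrb1c (adjusted p = 0.37 by edgeR) and 1.12 for Gzma (adjusted p = 0.43). Without control library 2 it was 0.14 for Klrb1c (adjusted p = 0.92) and -0.19 for Gzma (adjusted p = 0.91). Ncr1 (ENSMUSG00000062524.4, chromosome 7, 4337724 to 4345164), the NK receptor NKp46, had 0, 3, 8, 24 and 21 counts in libraries 1 to 5 labelled IL6 shRNA1. It had 20, 0, 4, 2 and 5 counts in control libraries 1 to 5. It did not pass the filter. Libraries 4 and 5 labelled IL6 shRNA1 and control library 1 held most Ncr1 counts, as they did for Klrb1c and Gzma. Set against the summed counts of Cd3e, Cd3d and Cd3g, the 3 NK genes stood at 11, 16.8, 9.92, 92.2 and 23.7 per 100 in libraries 1 to 5 labelled IL6 shRNA1, against 73.7, 0, 15.4, 44.7 and 48.8 per 100 in control libraries 1 to 5. The sign of the Gzma fold change turned when 1 of 4 single libraries was left out (-0.63 without library 4 labelled IL6 shRNA1). The grouping of the 3 NK genes was made after the values were seen and was not tested. The CD3 sums behind these ratios were only 21 and 38 counts in control libraries 2 and 4. Gzma alone gave 67 of the 118 NK counts in library 4 labelled IL6 shRNA1 and 78 of the 129 in control library 1.

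**Figure D3:**
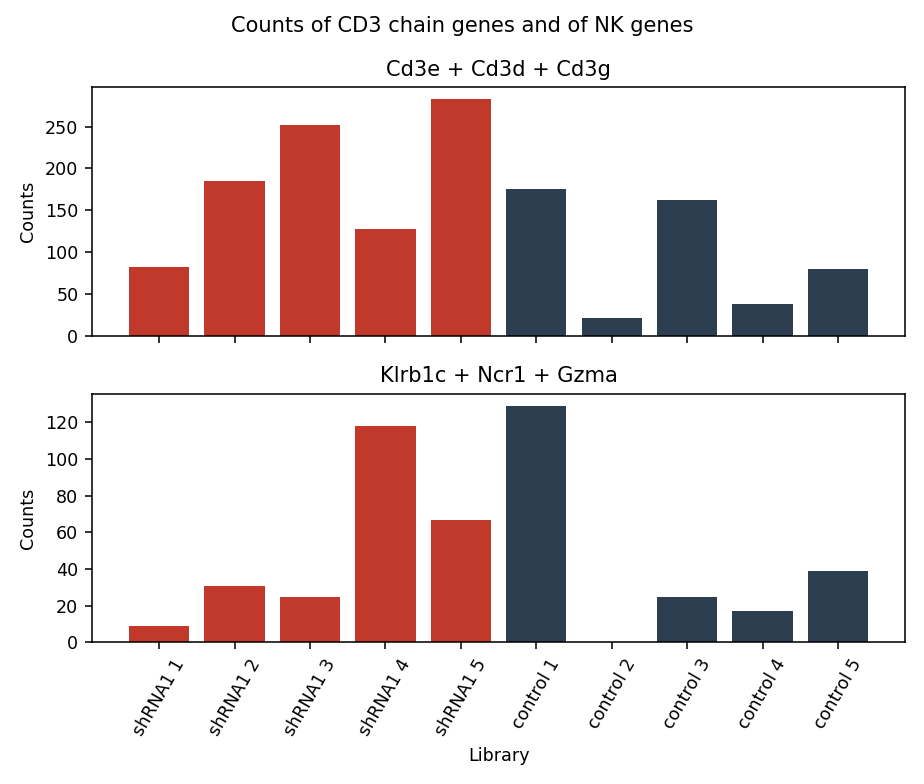
Summed counts (vertical axis) of Cd3e, Cd3d and Cd3g (upper panel) and of Klrb1c, Ncr1 and Gzma (lower panel) in each library, libraries labelled IL6 shRNA1 left and control right, 1 bar per library. The CD3 sum was highest, at 283, in library 5 labelled IL6 shRNA1, whereas the NK sum was 118 in library 4 labelled IL6 shRNA1 and 129 in control library 1.

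The transcription factor genes of cytotoxic cells differed in evenness. Eomes (ENSMUSG00000032446.14, chromosome 9, 118478212 to 118486132), which directs NK and memory CD8 T cell fate, stood at 1.92, 2.62, 1.91, 1.8 and 1.96 CPM in libraries 1 to 5 labelled IL6 shRNA1. It stood at 2.16, 0.438, 0.859, 0.517 and 0.771 CPM in control libraries 1 to 5. The libraries labelled IL6 shRNA1 were within 1.45-fold of each other and 4 of 5 control libraries lay below all of them, control library 1 being the exception (adjusted p = 0.09, with a log2 fold change of 1.08 ± 0.39 SE). Eomes was called without control library 1 (log2 fold change 1.66, adjusted p = 0.0076 by edgeR), by DESeq2 (adjusted p = 0.041) and by limma voom (adjusted p = 0.039). Those fits called 1881 of 15228, 3025 of 29634 and 1807 of 15064 genes in the same order. Over the omissions of single libraries its adjusted p ran from 0.0076 to 0.18. Tbx21, the related factor T-bet, had 6 to 28 counts in libraries labelled IL6 shRNA1 and 0 to 28 counts in control (adjusted p = 0.4, with a log2 fold change of 0.85 ± 0.65 SE). Without control library 1 its log2 fold change was 1.53 (adjusted p = 0.14 by edgeR), and without control library 2 it was 0.55 (adjusted p = 0.51).

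**Figure D4:**
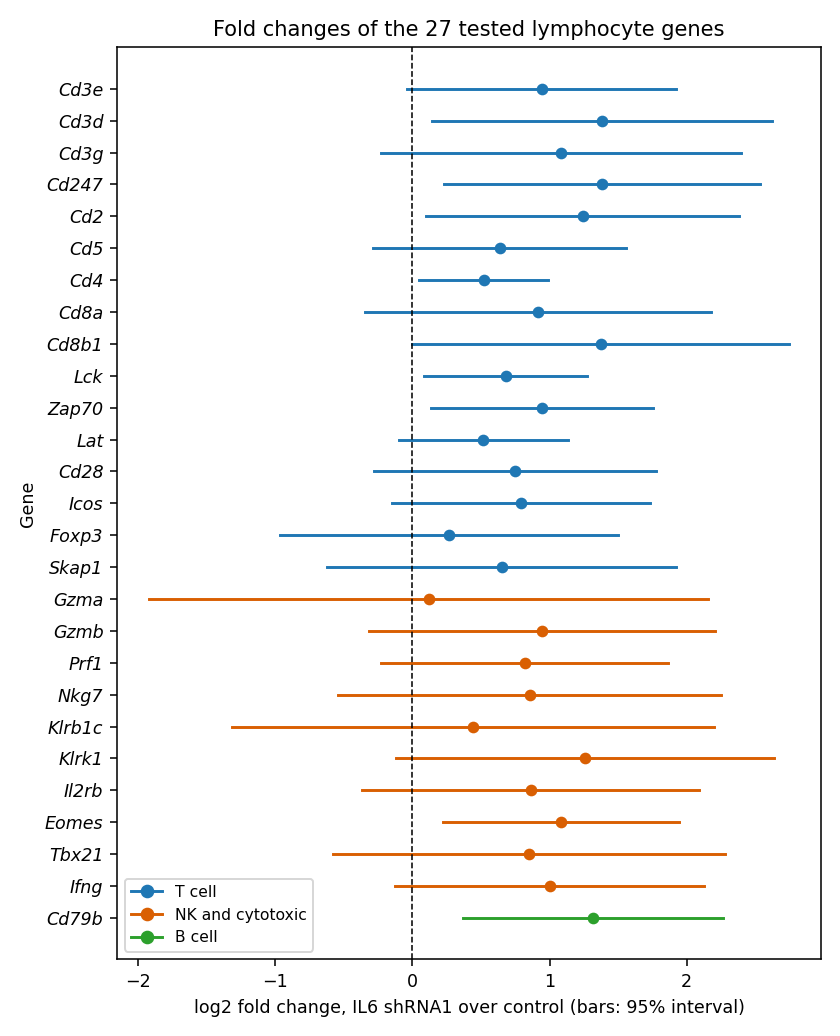
Log2 fold change of libraries labelled IL6 shRNA1 over control (horizontal axis; bars are 95% intervals from edgeR's quasi-likelihood fit) for the 27 tested lymphocyte genes, coloured by class. All points lie above 0, and the intervals are wide, from -1.92 to 2.16 for Gzma and from 0.05 to 0.99 for Cd4.

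Of the B cell genes, Cd79b had 27 to 66 counts in libraries labelled IL6 shRNA1 and 7 to 50 counts in control. Cd79a and Ms4a1 were counted hardly at all. Cd79b (ENSMUSG00000040592.11, chromosome 11, 106311341 to 106314762) encodes the beta chain that signals beside the B cell receptor, and stood at 1.44, 3.06, 3.6, 2.82 and 3.23 CPM in libraries 1 to 5 labelled IL6 shRNA1. It stood at 2.12, 0.341, 1.46, 0.569 and 1.13 CPM in control libraries 1 to 5. Libraries 2 to 5 labelled IL6 shRNA1 lay above every control library, and library 1 labelled IL6 shRNA1 lay below control libraries 1 and 3. Its means were 2.83 ± 0.827 CPM in libraries labelled IL6 shRNA1 and 1.12 ± 0.712 CPM in control libraries (SD, n = 5 each), the smallest adjusted p of the members but not a call (adjusted p = 0.068, with a log2 fold change of 1.32 ± 0.43 SE). It was called without library 1 labelled IL6 shRNA1 (adjusted p = 0.036), without control library 1 (0.031), by DESeq2 (0.0165), by limma voom (0.0495) and by limma on log2(FPKM + 1) (0.047), with 0.031 to 0.13 over the omissions of single libraries. Calls over all genes in these 5 fits were 2774 of 15254, 1881 of 15228, 3025 of 29634, 1807 of 15064 and 1564 of 15064 in the same order. Cd79a (ENSMUSG00000003379.7, chromosome 7, 24897381 to 24902197), whose protein must join CD79B to make the receptor, had 2, 2, 1, 8 and 7 counts in libraries 1 to 5 labelled IL6 shRNA1. It had 4, 8, 7, 7 and 4 counts in control libraries 1 to 5. No library exceeded 8 counts, and control library 2, the lowest for Cd79b, held 8. Ms4a1 (ENSMUSG00000024673.9, chromosome 19, 11249675 to 11266241), which encodes the B cell surface protein CD20, had 3, 7, 5, 11 and 3 counts in libraries 1 to 5 labelled IL6 shRNA1. It had 1, 0, 3, 0 and 0 counts in control libraries 1 to 5. These counts are too few to pass the filter. In the fit with no filter, edgeR gave Ms4a1 an adjusted p of 0.066 and Cd79a one of 0.66. Per length, Cd79b stood at 1.99 ± 0.61 FPKM in libraries labelled IL6 shRNA1 and 0.797 ± 0.53 FPKM in control, and Cd79a at 0.141 ± 0.113 FPKM and 0.199 ± 0.0605 FPKM in the same order (SD, n = 5 each).

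The highest control library exceeded the lowest by more than the ratio of the group means for 27 of 27 tested members. A range over 5 libraries readily exceeds a ratio of means, and the share over all genes was not counted. The count therefore does not set these members apart. For Gzma, Klrb1c and Tbx21 a control library was at 0 counts, and the range was taken as the wider. The highest library labelled IL6 shRNA1 exceeded the lowest by a median of 3.7-fold, and the highest control library exceeded its lowest by a median of 7.35-fold, beside a median 1.85-fold ratio of the group means. Control library 2 was the lowest of all 10 for 23 of 27 tested members, and the lowest pair was control libraries 2 and 4 for 21 of them. Library 5 labelled IL6 shRNA1 was the highest for 16 and library 3 for 6. Control library 1 exceeded the median library labelled IL6 shRNA1 for 11 of the 27, among them 6 of 10 NK and cytotoxic genes and 5 of 16 T cell genes. The same few libraries were thus high or low for most members.

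Summed over members, T cell genes stood at 10.7, 17.7, 29.1, 18.8 and 27.6 FPKM in libraries 1 to 5 labelled IL6 shRNA1, against 17.5, 5.1, 15.3, 6.45 and 12.4 FPKM in control libraries 1 to 5. NK and cytotoxic genes summed to 5.42, 12.1, 16.4, 18.8 and 21 FPKM in libraries 1 to 5 labelled IL6 shRNA1, against 18.5, 0.914, 10.1, 4.18 and 8.27 FPKM in control libraries 1 to 5. The ranges of both classes overlapped between the groups, and control library 1 was within the upper part of the range of the libraries labelled IL6 shRNA1 for NK genes. The 12 macrophage markers were counted at far higher levels, from 1100 to 2020 summed FPKM in libraries labelled IL6 shRNA1 and from 492 to 1230 in control. Of these 12, 10 were called higher and 0 lower (median log2 fold change 1.14), beside 5.62% and 6.16% of all genes tested. Among the 10 was the growth factor receptor gene Csf1r (276 ± 46.2 CPM against 152 ± 44.5 CPM in control; SD, n = 5 each; adjusted p = 0.025). The T cell sum was 1.16 ± 0.271% of the macrophage sum in libraries labelled IL6 shRNA1 and 1.24 ± 0.382% in control, and the NK and cytotoxic sum was 0.805 ± 0.234% and 0.835 ± 0.526% in the same order (SD, n = 5 each). Both shares, chosen after the values were seen, differed between groups by less than their spread. The leukocyte common antigen gene Ptprc stood at 106 ± 24.1 CPM and 58.3 ± 27.7 CPM in the same order (adjusted p = 0.1). The 10 pan-leukocyte markers summed to 158 to 330 FPKM in libraries labelled IL6 shRNA1 and 72.5 to 232 FPKM in control. Of these 10, 2 were called higher, beside 5.62% of all genes tested. All 10 had a log2 fold change above 0, with a median of 0.866 beside 0.863 for the 27 tested members. All 10 also had an unadjusted p under 0.05 by edgeR, beside 31.2% of all genes. None of the macrophage or pan-leukocyte markers was at 0 in a library. Skin, fat and muscle markers summed to 71.1 to 3150 FPKM in libraries labelled IL6 shRNA1, with the top value in library 5, and to 13.6 to 438 FPKM in control. The part of these other tissues in the lymphocyte values was not tested.

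**Figure D5:**
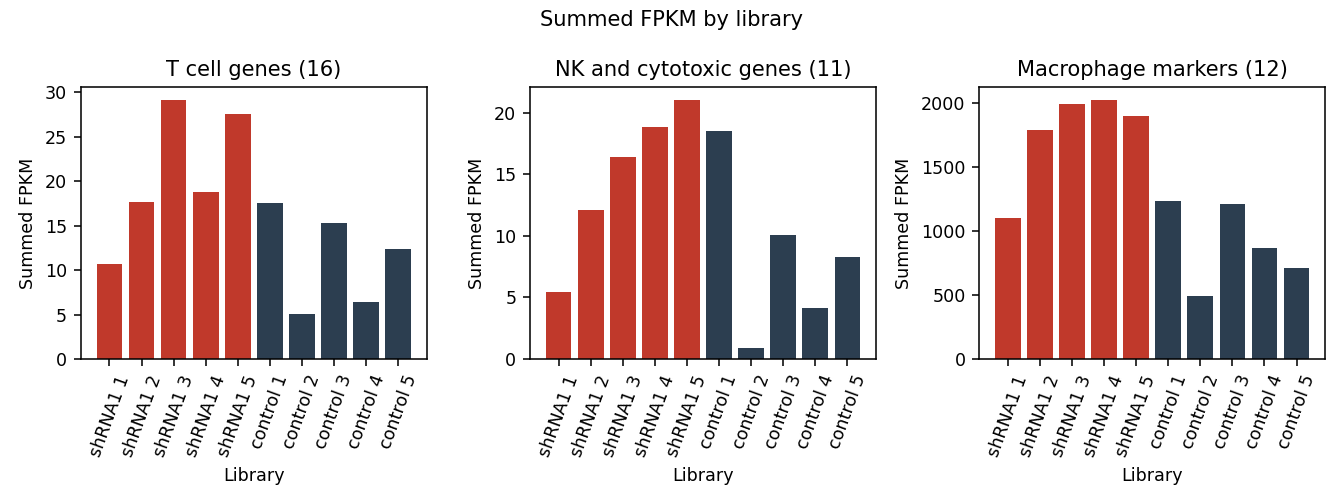
Summed FPKM (vertical axes, each starting at 0) of the 16 T cell genes, the 11 NK and cytotoxic genes and 12 macrophage markers in each library, libraries labelled IL6 shRNA1 left and control right, 1 bar per library. Control library 2 is the lowest in all 3 panels, and the ranges of the groups overlap in each.

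Other genes of the same pathways held some calls, beside 5.62% of all tested genes called higher and 6.16% called lower. Of 24 other T cell genes tested (28 listed), 2 were higher and 0 lower, with a median log2 fold change of 0.734. Bcl11b, a transcription factor of T cell commitment that other tissues also express, rose (12.6 ± 2.65 CPM against 4.23 ± 1.23 CPM in control; SD, n = 5 each; adjusted p = 0.0023). Il2ra, the high-affinity interleukin 2 receptor chain, rose as well (9.38 ± 2.99 CPM against 3.45 ± 1.96 CPM in control; SD, n = 5 each; adjusted p = 0.0495). Trac, the constant region of the T cell receptor alpha chain, did not follow the CD3 genes, with 489, 489, 388, 681 and 360 counts in libraries 1 to 5 labelled IL6 shRNA1, against 738, 572, 779, 594 and 411 counts in control libraries 1 to 5. Control library 2, with 11 counts of Cd3e, thus held 572 counts of Trac (log2 fold change -0.26 ± 0.14 SE, adjusted p = 0.25). Trdc, the delta chain gene, held 173 counts in control library 2 and 67 in library 3 labelled IL6 shRNA1. Its log2 fold change was -0.34 ± 0.24 SE (adjusted p = 0.36 by edgeR). Trac, Trdc and Tcf7 (log2 fold change -0.136) were the 3 of the 24 tested genes below 0. The beta chain gene Trbc2 did dip in control library 2, with 24 counts there and 110 in library 3 labelled IL6 shRNA1.

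Of 17 other NK and cytotoxic genes tested (27 listed), 4 were higher and 0 lower, with a median log2 fold change of 0.848, beside the same 5.62% and 6.16% of all genes. Cd244a, the receptor 2B4, averaged 12.9 ± 3 CPM against 6.86 ± 1.3 CPM in control (SD, n = 5 each; adjusted p = 0.013). Cx3cr1, a chemokine receptor, averaged 113 ± 13.4 CPM against 54.7 ± 20.5 CPM in control (adjusted p = 0.026). Fcgr3, an antibody receptor, averaged 61.4 ± 15.1 CPM against 24.3 ± 11.3 CPM in control (adjusted p = 0.03), and Tyrobp, a signalling adaptor, 77 ± 20.6 CPM against 42.7 ± 13 CPM in control (adjusted p = 0.0496). Macrophages are known to express these last 3 as well, and the cells behind any call in this list or the lists that follow were not identified. Of 11 other B cell genes tested (20 listed), 2 were higher and 1 lower, where 11.8% of all genes were called in either direction. Blnk (13.4 ± 2.56 CPM against 7.13 ± 1.32 CPM in control, adjusted p = 0.0088) and Cd22 (6.29 ± 0.816 CPM against 3.36 ± 1.23 CPM in control, adjusted p = 0.045) were higher. Tnfrsf13c, which encodes the BAFF receptor, was lower (0.226 ± 0.116 CPM against 1.01 ± 0.351 CPM in control; SD, n = 5 each; adjusted p = 0.01). Among 8 inhibitory receptor genes 1 was called, Havcr2 (23.3 ± 5.57 CPM against 11.7 ± 4.45 CPM in control, adjusted p = 0.041), while Pdcd1, the gene of PD-1, was at 4.98 ± 2.35 CPM against 2.23 ± 1.33 CPM in control (adjusted p = 0.15). Of 14 lymphocyte-attracting chemokine, receptor and cytokine genes tested (18 listed), 1 was called, Cxcl16 (118 ± 25 CPM against 52.1 ± 20.3 CPM in control, adjusted p = 0.027).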

How the data were processed

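RNA from 10 mouse libraries (5 per group, 1 batch in the labels) was measured by RNA-seq. Per the labels, total RNA was isolated with RNeasy columns and libraries were made with the NEBNext Ultra II kit. The submitters' processing notes name Trim Galore 0.6.6, STAR 2.7.0f, Subread 1.6.4 with featureCounts and the builds mm10 and GRCm38. Whether counting used strand was not given in the sources used here, so antisense or overlapping genes cannot be told apart. In the deposited table the authors give raw counts per gene. The deposited FPKM values are counts scaled by gene length and column total by the authors.

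The fits used edgeR 4.0.16 under R 4.3.3 (filterByExpr by group at a minimum count of 10, TMM, estimateDisp, robust glmQLFit and glmQLFTest, Benjamini-Hochberg over 15064 genes). The script was tested on simulated data. Ratios of counts, with 0.5 added, were compared by exact two-sided permutation. Alternatives were other scalings and filters, DESeq2 1.42.0, limma 3.58.1 with voom, limma on log2(FPKM + 1) and log2(FPKM + 0.1), the title number as a block, an adjusted p under 0.01, and the omission of libraries. Figures and sums were made with Python and matplotlib 3.10.9.

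Named genes were all 30 members, Il6, Ptprc, Csf1r and, for each further list, up to 4 called genes with the smallest p. The members and lists were chosen with earlier results of these data known. Trac, Trdc, Tcf7, Trbc2 and Pdcd1, and the 8 genes plotted singly, were named after their values were seen. Counting error alone limits members with few counts.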

Additional observations from a re-analysis of the deposited data

Results flagged for a closer look

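Eomes stood at 2.62 CPM in library 2 labelled IL6 shRNA1, while the other libraries of that group lay between 1.80 and 1.96 CPM. In control library 1 it stood at 2.16 CPM, while the other control libraries lay between 0.438 and 0.859 CPM. The summed FPKM of the B cell genes was 1.05 in library 1 labelled IL6 shRNA1, while the other libraries of that group lay between 2.3 and 2.66. Cd79b gave 0.958 of the 1.05. The log2 ratio of Cd8a to Cd4 counts was -2.14 in library 1 labelled IL6 shRNA1, while the others of that group lay between -0.88 and -0.414. Each is the sample whose gap to the nearest other exceeded 0.71 of the range of its group. Such a gap was looked for in 72 groups of 5, and chance gives about 1 in 20.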

How the results depend on the processing

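The counts of called members were 0 in each class. DESeq2 called 1 T cell gene, 1 NK and cytotoxic gene and 1 B cell gene, limma voom 1 NK and cytotoxic and 1 B cell gene, and limma on log2(FPKM + 1) 1 B cell gene. Over the omissions of single libraries the counts ran from 0 to 2 for T cell genes, from 0 to 1 for NK and cytotoxic genes and from 0 to 1 for B cell genes. Calls over all genes moved as well. They were 1775 of 15064 in the main fit and 3025 of 29634 by DESeq2. By limma voom they were 1807 of 15064, and by limma on log2(FPKM + 1) 1564 of 15064. Over the same omissions they ran from 864 of 15280 (without control library 5) to 2774 of 15254 (without library 1 labelled IL6 shRNA1). Of the member fold changes under the alternatives, 599 kept direction and side of the threshold and 11 passed it. The other 7 changed sign: Gzma was -0.6309 without library 4 labelled IL6 shRNA1, -0.1879, -0.06956 and -0.04871 without control libraries 2, 3 and 4, and -0.2638 without the 3 libraries that stand apart. Without those 3, Foxp3 was -0.05716 and Klrb1c -0.04468. Of the ratios, without those 3 the Cd8a to Cd4 ratio difference was -0.164 (main value 0.602) and the Foxp3 to Cd3e difference 0.0468 (main value -0.288). The median member log2 fold change was then 0.447 and 24 of 27 were above 0. The Gzmb to Cd3e difference was -0.13 without control library 2 (main value 0.265). Over omissions of single libraries the differences ran from 0.0685 to 1.01 for Cd8a to Cd4, from -0.569 to -0.035 for Foxp3 to Cd3e and from -0.13 to 0.467 for Gzmb to Cd3e, and Gzma ran from -0.6309 to 1.122. The causes were not tested. The members with an unadjusted p under 0.05 numbered 2 to 16 over those omissions, where the share over all genes was not counted. In the fit with no filter 29 of 30 members were above 0. The deviations of libraries with the same title number had correlations from -0.282 to 0.269. Such correlations cannot show whether a pair shared a preparation, and the titles give a pair only its number. With the replicate block 0 members and 755 genes were called, against 1775 without it. Depth limits Cd79a, with at most 8 counts in a library, and Ms4a1, with at most 11. Gzma, Klrb1c, Ncr1, Tbx21 and Ms4a1 had 0 counts in control library 2, where a count of 0 allows up to 3.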
